A study of Mus musculus with 6 samples.

Results

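The histone methylation and acetylation enzymes were described here in the anterior prostate (AP) of mice that overexpress the Notch1 intracellular domain (N1ICD). They are the gene rows whose symbols begin with Kmt, Kdm, Setd, Hdac, Kat or Sirt and a digit, together with Nsd1 to Nsd3, Ezh1, Ezh2, Crebbp, Ep300, Ash1l, Dot1l, Eed and Suz12. The rows were taken by symbol and not by value, but the choice was made with earlier results of these data known. It found 76 of the 54532 rows with a gene symbol. Of these, 35 were classed as writers, the side that adds methyl or acetyl groups, and 36 as erasers, the side that removes them. Both sides include members, named below, that are subunits or have little, uncertain or other activity. The other 5 rows were pseudogenes, copies and an opposite-strand transcript (Kdm6bos, Kdm4dl, Kat2b-ps, Kat6b-ps1 and Kat6b-ps2). A mean of at least 1 FPKM over the mice was needed for testing, and 68 rows passed, 34 writers and 34 erasers. FPKM are fragments per kilobase of exon, scaled by a denominator for each mouse that differed from its reads, as given below. The 8 rows that did not pass were Kdm4d, Hdac9, Setd4 and the 5 rows outside the classes.

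RNA-seq of the AP was compared between 3 OEx mice and 3 Ctrl mice, all males of 20 weeks. OEx mice (genotype N1ICD-Oex) carried Pbsn-Cre and 1 Rosa26 N1ICD allele, and Ctrl mice carried the N1ICD allele without Cre according to the methods of the study, while the sample labels call them wild type. The Pbsn (probasin) promoter drives Cre in the prostatic epithelium, so N1ICD was switched on in epithelial cells, whereas RNA came from the whole AP with its stroma. The comparison asks how the transcriptome of the AP differs when Notch1 signaling is over-active in the epithelium.

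Lysine methylation of histones marks genes for use or silencing according to the residue. H3K4 methylation marks active promoters and enhancers, H3K36 and H3K79 methylation transcribed gene bodies, and H3K27 methylation by Polycomb repressive complex 2 (PRC2) silenced genes, and acetylation opens chromatin. N1ICD acts in the nucleus with RBPJ and Mastermind, which bring in acetyltransferases such as Ep300, and without N1ICD RBPJ is bound by corepressors that contain deacetylases and demethylases.

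Notch1 itself stood at 41.9, 47.6 and 78.9 FPKM in OEx mice 1 to 3 and at 5.18, 5.55 and 3.34 FPKM in Ctrl mice 1 to 3 (log2 fold change 3.30, SE 0.268, FDR 9.91e-05), so each library matched its label. The reads behind the FPKM values were recovered from exon lengths and ran from 14772005 to 18655462 per mouse, and 3 reads, the most that a count of 0 allows, were worth 0.161 to 0.203 CPM. Mice 1 and 2 of each group lay close together, and the labels do not say whether they are independent. Their FPKM sums were 255671 and 253965 in OEx mice, and 467138 and 468438 in Ctrl mice. Both replicate 3 mice stood apart, at 272224 in the OEx mouse and 529972 in the Ctrl mouse. Ctrl mouse 3 had a summed level of 16128 FPKM for 8 seminal vesicle genes, against 2.74 to 4.36 FPKM in the other Ctrl mice. OEx mouse 3 had 12.3 FPKM for 7 immune markers, against 175 to 192 FPKM in the other OEx mice and 26.5 to 64.9 FPKM in Ctrl mice. The luminal markers of the AP were present in every mouse, with a summed level of 1422 to 2151 FPKM in OEx mice against 6820 to 10859 FPKM, most of the latter from Tgm4 (4610 to 8280 FPKM). Of these 6 markers 3 were called lower, while Epcam was at 310 to 491 FPKM in OEx mice and 214 to 297 FPKM in Ctrl mice and did not pass the FDR. Basal markers summed to 6.79 to 15.9 FPKM against 212 to 249.4 FPKM (4 of 4 called lower), smooth muscle markers to 351 to 418 FPKM against 1043 to 2245 FPKM (5 of 5 called lower), and endothelial markers to 6.52 to 7.66 FPKM against 17.5 to 23.1 FPKM (1 of 5 called lower). Fibroblast markers summed to 249.8, 252 and 25.1 FPKM in OEx mice 1 to 3 against 53.1 to 94.7 FPKM in Ctrl mice. OEx mice 1 and 2 thus lay above every Ctrl mouse and OEx mouse 3 below. In whole tissue, fewer cells of a type and less RNA per cell cannot be told apart, and the part of cell composition in the values that follow was not tested.

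Among the 68 enzymes tested, 13 were higher in OEx mice by more than 2-fold at a Benjamini-Hochberg FDR under 0.05 in limma. These are the 2 criteria for a call, and 0 enzymes were called lower. Limma-voom on recovered reads also called 0 lower. Its library sizes were the denominators behind the FPKM values, so it shares their scaling. The 13 were Kmt2a, Kmt2c, Kmt2d, Kmt2e, Suz12, Ezh2, Ash1l and Setd5 among the writers and Kdm3a, Kdm5d, Kdm6a, Kdm7a and Sirt1 among the erasers. They made up 19.1% of the enzymes, while 12.8% of the 12553 rows tested were called higher and 15.5% were called lower. By FDR alone, 39 enzymes were higher (57.4%, against 30.9% of all rows) and 4 were lower, Kdm8, Hdac1, Sirt2 and Kat14 (5.88%, against 36.5% of all rows). At an unadjusted p under 0.05 in limma, 39 were higher and 5 lower. Every OEx mouse was above every Ctrl mouse for 40 enzymes (58.8%, against 33.6% of all rows) and below for 6 (8.82%, against 38.9%), and the groups overlapped for 22. Log2 fold changes lay between -0.72 and 1.82. Their median was 0.48, while that of all rows tested was -0.074.

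The direction of the lower enzymes depended on how the mice were scaled. The most abundant gene of each Ctrl mouse held 14.2% to 22.0% of its reads, against at most 1.12% in the OEx mice. The deposited FPKM values sum to 253965 to 272224 in OEx mice and 467138 to 529972 in Ctrl mice. The denominators that scale these values were 0.726 to 0.815 times the recovered reads in Ctrl mice and 1.22 to 1.34 times in OEx mice. When every mouse was given the same sum of FPKM, the median of all rows moved from -0.074 to 0.66, 42 enzymes were called higher (61.8%, against 34.8% of all rows), and 14 of the 15 enzymes below 0 turned to above it, all but Kdm8. Among them were Hdac1, Kat14, Sirt2 and Sirt3, and Kdm4b, Setd3 and Hdac8. For 10 of the 14 the higher value passed the FDR. The median of the enzymes stood 0.56 above that of all rows with the deposited values and 0.52 above it with equal sums.

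The fold changes also followed exon length over the whole table. The median log2 fold change went from -0.49 in the shortest of 5 equal bins of rows to 0.39 in the longest, and from 0.61 in the bin with the lowest GC content to -0.47 in that with the highest. The enzymes are long transcripts, with a median exon length of 6775 bases against 3830 bases for all rows tested, and their median GC content of 50.0% was close to the 50.1% of all rows. The longest bin, which holds 33 of the enzymes and 10 of the 13 called, had a median of 0.74 over these enzymes. In the bin of lowest GC content 5 of 10 enzymes were called (50%, against 28.2% of its rows), with a median of 1.02. In the next bin 5 of 20 were called (25%, against 13.9%), with a median of 0.72. The medians were 0.0040 and 0.21 in bins 4 and 5, those of highest GC content. With the GC trend alone removed 9 enzymes were called higher (13.2%, against 10.4% of all rows), 6 of them among the 13. After the trends on exon length and GC content were removed from each mouse, 2 enzymes were called higher (2.94%, against 10.5% of all rows), Kdm3a and Setd6, and the median was 0.24 against -0.046 for all rows. All 13 enzymes called with the deposited values stayed above 0 under this correction (0.13 to 1.33), and 11 of them kept an FDR under 0.05, all but Kdm5d and Kdm7a. Of the 43 enzymes that passed the FDR in either direction, 12 no longer did (11 higher and 1 lower), and Nsd2, Nsd3 and Kdm5b turned from higher to lower past the FDR. By FDR alone 32 enzymes were then higher and 10 lower, against 39 and 4 with the deposited values. Hdac4, Hdac8, Setd3 and Sirt5 were newly lower past the FDR. Newly higher past it were Kdm1a, Hdac10, Hdac11, Sirt4, Sirt6, Kat2a and Kat8. In all, 8 enzymes turned to below 0 and 4 to above 0.

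**Figure D1:**
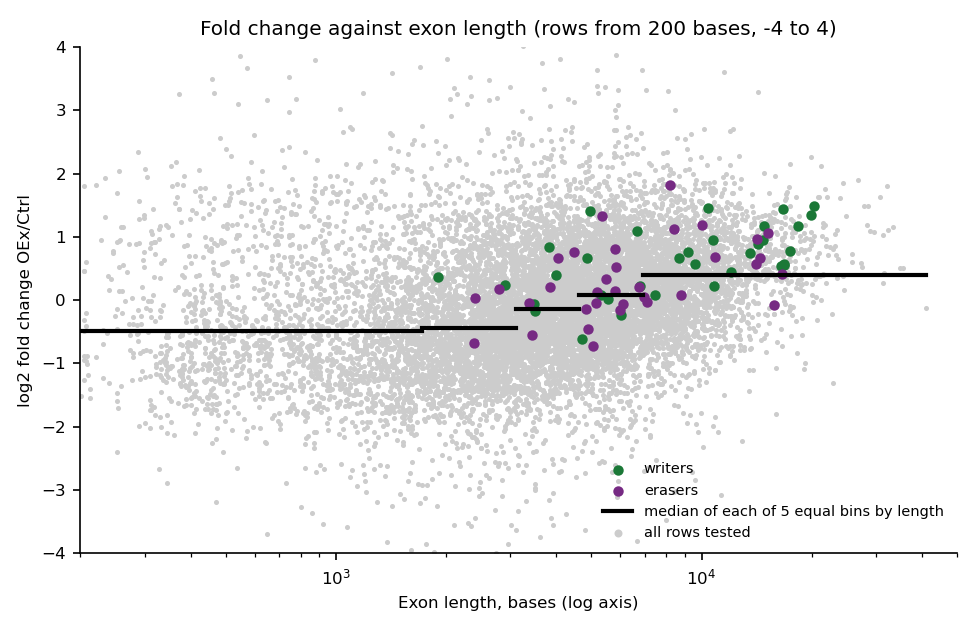
Log2 fold change OEx/Ctrl (vertical axis) against exon length in bases (horizontal log axis) for all rows tested (grey), writers (green) and erasers (purple), with black lines at the median of each of 5 equal bins of rows by length. The medians climb from -0.49 to 0.39, and 33 of the 68 enzymes lie in the longest bin.

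More writers than erasers passed the FDR. Among 34 writers, 24 were higher by FDR alone (70.6%) and 1 was lower (2.94%), with a median of 0.62. Among 34 erasers 15 were higher (44.1%) and 3 lower (8.82%), with a median of 0.19. Calls of higher made up 23.5% of writers and 14.7% of erasers. These counts and those by class below stand beside 12.8% called higher, and 30.9% higher and 36.5% lower by FDR alone, among all rows. The 24 methyltransferases and PRC2 subunits had a median of 0.72, the 17 demethylases 0.52, the 10 acetyltransferases 0.41 and the 17 deacetylases 0.030. The difference between writers and erasers was not tested, and the writers were longer, with a median exon length of 9388 bases against 5820 bases. With both trends removed, the medians were 0.36 for writers and 0.13 for erasers.

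**Figure D2:**
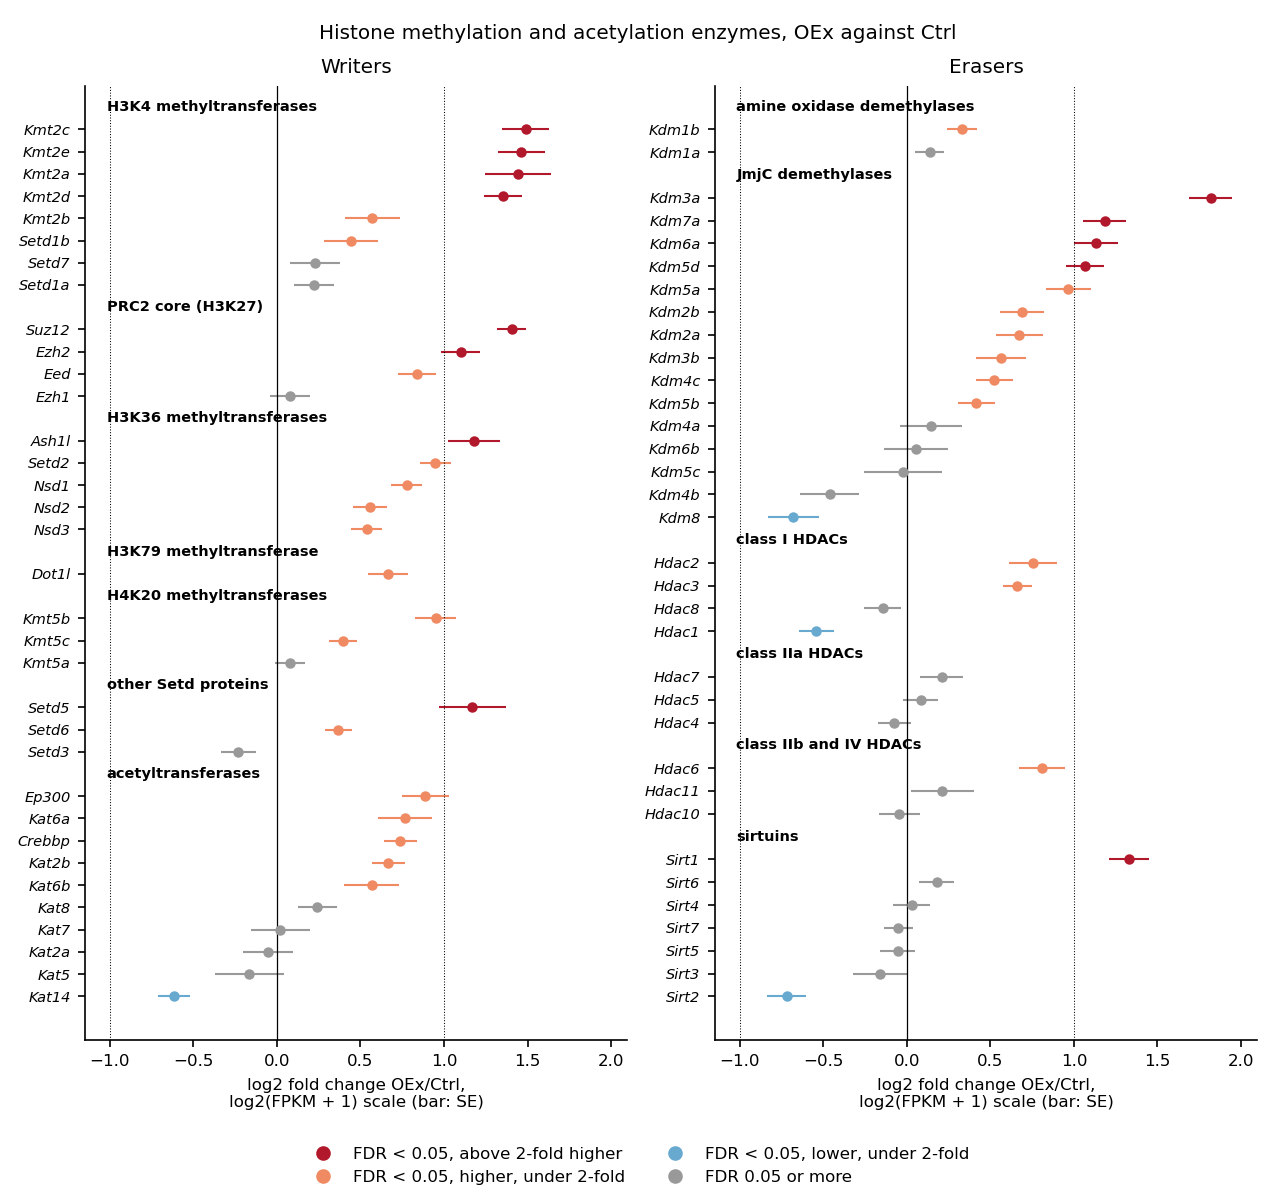
Log2 fold change OEx/Ctrl with its SE for the 68 enzymes tested, writers on the left and erasers on the right, grouped by class and coloured by the limma result. The 13 enzymes in dark red were called higher, and of the 4 in blue, Hdac1, Sirt2 and Kat14 turn to above 0 when every mouse has the same sum of FPKM, as do 14 of the 15 enzymes below 0.

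Of the 8 H3K4 methyltransferases, 4 were called higher and 6 were higher by FDR alone, with a median of 0.96. The called members were 4 of the Kmt2 (mixed lineage leukemia) proteins. Kmt2a, which methylates H3K4 at promoters such as those of Hox genes, had 10.7, 11.4 and 13.01 FPKM in OEx mice 1 to 3 and 4.44, 4.41 and 2.42 FPKM in Ctrl mice 1 to 3. The groups did not overlap, and Ctrl mouse 3 was well below the other Ctrl mice. Kmt2a rose by 1.44 on the log2 scale (SE 0.198, FDR 0.000786).

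Kmt2c and Kmt2d are the related enzymes that monomethylate H3K4 at enhancers, and Kmt2d is also known as a coactivator at Notch target genes. Kmt2c measured 7.42, 7.94 and 9.51 FPKM in OEx mice 1 to 3, against 2.42, 2.70 and 1.83 FPKM in Ctrl mice 1 to 3, a rise of 1.49 (SE 0.139, FDR 0.00016). Kmt2d stood at 13.8, 15.9 and 15.95 FPKM in OEx mice 1 to 3 and at 5.87, 5.68 and 4.56 FPKM in Ctrl mice 1 to 3, a rise of 1.35 (SE 0.115, FDR 0.000112). For both, all OEx mice were far above all Ctrl mice, and Ctrl mouse 3 was the lowest of the 6. Kmt2e, which carries the SET domain but has little known activity on histones, had 7.97, 8.80 and 11.2 FPKM in OEx mice 1 to 3 and 2.95, 2.90 and 2.31 FPKM in Ctrl mice 1 to 3 (log2 fold change 1.46, SE 0.142, FDR 0.000185). The groups were again apart, although 9.31% of the exon bases of Kmt2e overlap Srpk2, whose reads may be shared. The 4 other members, Kmt2b, Setd1a, Setd1b and Setd7, had log2 fold changes of 0.22 to 0.57. Of these Kmt2b and Setd1b passed the FDR, Setd1b no longer so with the exon length and GC trends removed. With these trends removed Kmt2a was at 0.89, Kmt2c at 0.66, Kmt2d at 0.84 and Kmt2e at 0.87, under the 2-fold criterion.

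PRC2 writes H3K27 methylation with Ezh2 or Ezh1 as the catalytic subunit, Suz12 as scaffold and Eed as the reader that binds the finished mark. Of the 4 core subunits, 2 were called higher and 3 were higher by FDR alone, with a median of 0.97. The promoters of the 4 genes are shown since Ezh2, Suz12 and Eed moved together while the groups overlapped for Ezh1, the catalytic subunit known from non-dividing cells. Each is the 250 bases before the gene's start from RefSeq (GRCm38.p6), 5′ to 3′ on the strand of the gene: Ezh2 at chr6:47595031-47595280 (minus strand), Suz12 at chr11:79992856-79993105 (plus), Eed at chr7:89980977-89981226 (minus) and Ezh1 at chr11:101226464-101226713 (minus). Capitals mark the CCAAT box, CCAAT or ATTGG on the other strand, and 1 of the searched forms of the E2F site, TTTCCCGC.
Ezh2: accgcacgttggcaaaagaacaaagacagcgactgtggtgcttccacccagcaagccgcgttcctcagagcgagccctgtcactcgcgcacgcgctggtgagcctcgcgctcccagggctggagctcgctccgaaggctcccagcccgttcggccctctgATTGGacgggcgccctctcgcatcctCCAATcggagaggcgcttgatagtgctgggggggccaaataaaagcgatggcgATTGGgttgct
Suz12: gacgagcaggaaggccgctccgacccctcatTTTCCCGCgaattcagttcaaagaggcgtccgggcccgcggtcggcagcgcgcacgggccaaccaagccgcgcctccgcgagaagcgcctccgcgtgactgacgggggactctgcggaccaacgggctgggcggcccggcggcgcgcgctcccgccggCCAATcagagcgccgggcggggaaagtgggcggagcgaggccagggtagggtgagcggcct
Eed: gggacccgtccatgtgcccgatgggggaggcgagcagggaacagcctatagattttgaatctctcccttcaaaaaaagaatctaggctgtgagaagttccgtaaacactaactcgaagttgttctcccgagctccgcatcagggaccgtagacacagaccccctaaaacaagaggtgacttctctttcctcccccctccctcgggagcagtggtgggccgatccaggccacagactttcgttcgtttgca
Ezh1: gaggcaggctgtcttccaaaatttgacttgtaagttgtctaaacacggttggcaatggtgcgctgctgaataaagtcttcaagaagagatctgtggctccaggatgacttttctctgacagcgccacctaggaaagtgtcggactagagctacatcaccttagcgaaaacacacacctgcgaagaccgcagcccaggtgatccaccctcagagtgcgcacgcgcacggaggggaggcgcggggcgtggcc

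The Ezh2 promoter held 3 CCAAT boxes, at positions -90, -64 and -11 from the start, and that of Suz12 held 1 at -61 and an E2F form at -219. No searched form was found in those of Eed and Ezh1. CpG dinucleotides numbered 23 in Ezh2, 37 in Suz12, 12 in Eed and 14 in Ezh1. A RefSeq promoter was matched for 52 of the 68 enzymes, including 11 of the 13 called, with 71 promoters in all. CCAAT on either strand was in a promoter of 23 of the 52 enzymes, and in 33.8% of 32851 mouse promoters of the same length. Of the 11 called, 3 had it (Ezh2, Kdm3a and Suz12). An enzyme counts if any of its promoters holds the form, while the percentages are per promoter, so these figures are not like for like. Any of the E2F forms TTTGGCGC, TTTGCCGC, TTTCGCGC and TTTCCCGC was in 4 (Kat2a, Kmt5c, Sirt4 and Suz12), against 1.86% of all promoters. The RBPJ form GTGGGAA was in 2 (Sirt6 and Sirt7, not called), against 5.42% of all promoters. Such matches are letters in a window and no measure of binding.

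Suz12 measured 10.2, 9.20 and 10.4 FPKM in OEx mice 1 to 3, against 3.30, 3.05 and 3.01 FPKM in Ctrl mice 1 to 3. These were tight groups without overlap, and Suz12 rose by 1.41 on the log2 scale (SE 0.0875, FDR 4.47e-05). Ezh2 was the least abundant subunit and stood at 3.24, 2.93 and 2.80 FPKM in OEx mice 1 to 3 and at 0.706, 0.879 and 1.01 FPKM in Ctrl mice 1 to 3 (log2 fold change 1.10, SE 0.115, FDR 0.000243). All OEx mice were again above all Ctrl mice, with little spread inside either group. Eed had 10.03, 9.57 and 10.3 FPKM in OEx mice 1 to 3 and 4.87, 4.56 and 6.07 FPKM in Ctrl mice 1 to 3, and it was higher by 0.84 (SE 0.112, FDR 0.000695), short of 2-fold but without overlap. A share of 6.82% of the exon bases of Eed overlaps E230029C05Rik. Ezh1 measured 9.74, 9.83 and 11.4 FPKM in OEx mice 1 to 3, against 9.90, 11.0 and 8.35 FPKM in Ctrl mice 1 to 3 (log2 fold change 0.077, SE 0.121, FDR 0.593). Here the groups overlapped, and without Ctrl mouse 3 the log2 fold change of Ezh1 was -0.020. Removal of the exon length and GC trends left Suz12 at 0.90 and Ezh2 at 0.63, under the 2-fold criterion. Eed, at 0.84 with the deposited values, was then at 0.90 (FDR 0.00117).

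The summed level of 8 proliferation genes was 29.4 to 40.2 FPKM in OEx mice and 23.6 to 27.5 FPKM in Ctrl mice. Of the 6 tested, 2 were higher by FDR alone (33.3%, close to the 30.9% of all rows). Mki67 alone was called (log2 fold change 1.56, SE 0.131, FDR 0.000109), a share of 16.7% against 12.8% of all rows. The groups overlapped for 3 of the 6. The part of cell division in the Ezh2 values was not tested.

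The H3K36 methyltransferases were all higher by FDR (5 of 5, median 0.78), and 1 was called, but the direction of 3 of them turned with the exon length and GC trends removed. Ash1l, which adds the dimethyl mark and opposes Polycomb silencing, stood at 7.04, 7.16 and 8.84 FPKM in OEx mice 1 to 3 and at 3.14, 3.31 and 2.12 FPKM in Ctrl mice 1 to 3. Ctrl mouse 3 was lowest and OEx mouse 3 highest, and no values overlapped (log2 fold change 1.18, SE 0.156, FDR 0.000671). Without both replicate 3 mice, and at 0.36 with the trends removed, Ash1l was no longer called. Setd2, the enzyme of H3K36 trimethylation, and Nsd1, Nsd2 and Nsd3, which add the dimethyl mark, had log2 fold changes of 0.54 to 0.95. With the trends removed Setd2 was at 0.22 (FDR 0.0333), Nsd1 at -0.044 (FDR 0.61), Nsd2 at -0.61 (FDR 0.0053) and Nsd3 at -0.23 (FDR 0.0317).

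Dot1l, the H3K79 methyltransferase, had 7.42, 7.94 and 8.62 FPKM in OEx mice 1 to 3 and 4.89, 5.26 and 3.92 FPKM in Ctrl mice 1 to 3 (log2 fold change 0.66, SE 0.118, FDR 0.00249). Its groups did not overlap, but the difference was under 2-fold. Among the H4K20 methyltransferases, Kmt5b, which adds further methyl groups to monomethylated H4K20, measured 5.81, 5.71 and 7.22 FPKM in OEx mice 1 to 3, against 3.05, 2.80 and 2.39 FPKM in Ctrl mice 1 to 3. It was higher by 0.95 (SE 0.122, FDR 0.000592) with no overlap and crossed 2-fold in limma-voom on the recovered reads. With the exon length and GC trends removed Kmt5b was at 0.25 (FDR 0.0347). Kmt5c had a log2 fold change of 0.40 that passed the FDR, and Kmt5a, which sets the monomethyl mark, had 0.079 and overlapping groups.

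Of the 3 other Setd proteins tested, Setd5 was called. Setd5, a SET domain protein whose own activity on histones is uncertain, stood at 9.31, 9.15 and 15.6 FPKM in OEx mice 1 to 3 and at 4.396, 4.66 and 3.996 FPKM in Ctrl mice 1 to 3. OEx mouse 3 was far above the other OEx mice, yet all 3 were above the Ctrl mice (log2 fold change 1.17, SE 0.2002, FDR 0.00211). Without OEx mouse 3 Setd5 was no longer called, and with the exon length and GC trends removed it was at 0.52 (FDR 0.0232). Setd6 passed the FDR at 0.37, and Setd3, an actin methyltransferase, was at -0.23 and did not. With the trends removed Setd6 was at 1.08 (FDR 6.31e-05) and Setd3 at -0.52 (FDR 0.00182). Setd4 rested on 41 to 57 reads and was not tested.

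No acetyltransferase was called in limma with the deposited values, although 5 of 10 were higher and 1 lower by FDR alone and by unadjusted p alike, with a median of 0.41. Limma-voom called 1 of them, Ep300. Ep300 and Crebbp are the paired coactivators that acetylate H3K27, and Ep300 is brought to RBPJ by Mastermind. Ep300 had 7.11, 7.31 and 9.02 FPKM in OEx mice 1 to 3 and 4.36, 3.92 and 3.04 FPKM in Ctrl mice 1 to 3 (log2 fold change 0.89, SE 0.142, FDR 0.00156). Crebbp measured 5.06, 4.99 and 5.84 FPKM in OEx mice 1 to 3, against 2.93, 2.53 and 2.85 FPKM in Ctrl mice 1 to 3 (log2 fold change 0.74, SE 0.0999, FDR 0.000743). All OEx mice were above all Ctrl mice for both, with OEx mouse 3 highest. Kat2b, Kat6a and Kat6b also passed, at 0.57 to 0.76, and Kat6b turned to -0.14 (FDR 0.37) with the exon length and GC trends removed. With these trends removed Ep300 was at 0.44 (FDR 0.00514) and Crebbp at 0.34 (FDR 0.0283). Kat2a, Kat5, Kat7 and Kat8 had overlapping groups, with log2 fold changes of -0.17 to 0.24. With the trends removed Kat8 was at 0.71 (FDR 0.00128) and Kat2a at 0.36 (FDR 0.0395), while Kat5 and Kat7 did not pass.

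Kat14, a subunit of the ATAC acetyltransferase complex, was the lower one and was named after its values were seen. It stood at 7.09, 6.37 and 5.88 FPKM in OEx mice 1 to 3 and at 11.0, 10.3 and 9.83 FPKM in Ctrl mice 1 to 3 (log2 fold change -0.61, SE 0.0959, FDR 0.0014). Every OEx mouse was below every Ctrl mouse, but the direction turned to 0.19 with equal sums of FPKM, and 14.7% of its exon bases overlap Pet117.

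**Figure D3:**
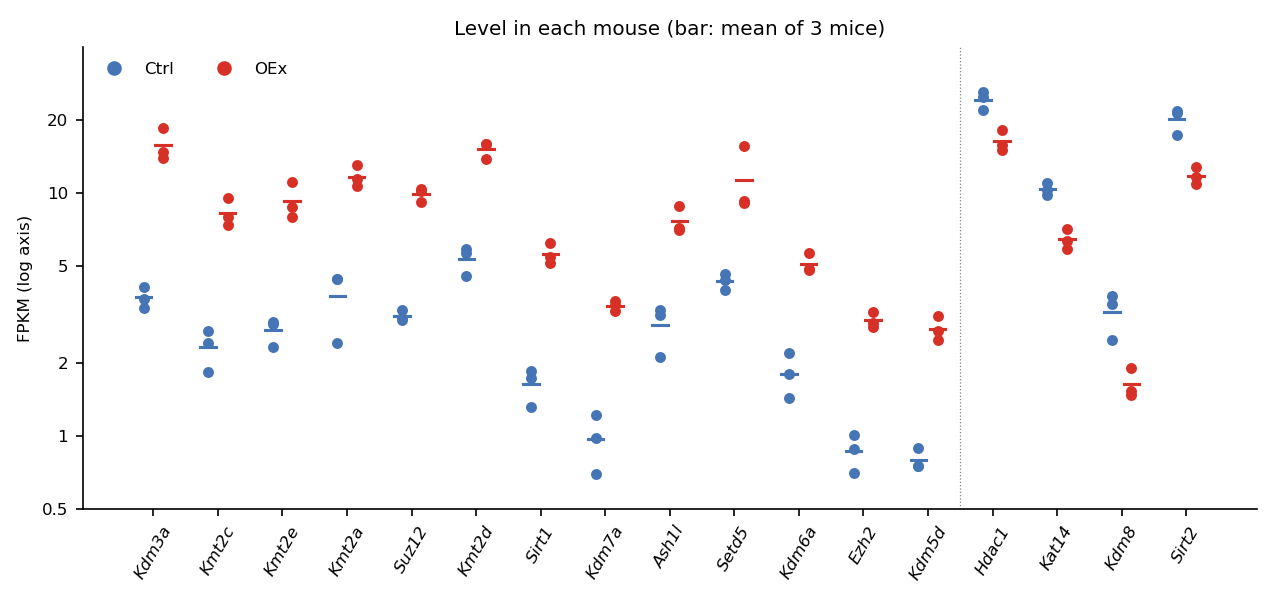
FPKM in each mouse on a log axis for the 13 enzymes called higher, left of the dotted line, and the 4 lower by FDR alone, right of it, with Ctrl mice in blue, OEx mice in red and a bar at the mean of 3 mice. No enzyme shown has overlapping groups, and with equal sums of FPKM Hdac1, Kat14 and Sirt2 turn to above 0.

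Among the erasers, the amine oxidase demethylases differed little. Kdm1a, the H3K4 demethylase of the CoREST complex that is also found in RBPJ complexes, had 14.4, 14.1 and 16.0022 FPKM in OEx mice 1 to 3 and 14.2, 13.1 and 12.9 FPKM in Ctrl mice 1 to 3. Its groups overlapped (log2 fold change 0.14, SE 0.0868, FDR 0.203), and it was at 0.25 (FDR 0.0321) with the exon length and GC trends removed. Kdm1b, its relative, measured 6.80, 6.35 and 6.74 FPKM in OEx mice 1 to 3, against 5.19, 4.61 and 5.43 FPKM in Ctrl mice 1 to 3. All OEx mice were above the Ctrl mice (log2 fold change 0.33, SE 0.0899, FDR 0.0156), but 9.19% of its exon bases overlap Dek, and the value was -0.031 with the exon length and GC trends removed.

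The JmjC demethylases, which use iron and 2-oxoglutarate, were 15 tested genes with 4 called higher, 10 higher and 1 lower by FDR alone and a median of 0.56. Kdm3a, an H3K9 demethylase known as a coactivator of the androgen receptor, had the largest log2 fold change of the 68 enzymes. It stood at 14.8, 13.9 and 18.5 FPKM in OEx mice 1 to 3 and at 4.11, 3.66 and 3.38 FPKM in Ctrl mice 1 to 3 (log2 fold change 1.82, SE 0.128, FDR 6.19e-05). The groups were far apart, and Kdm3a was called under each of the 20 alternative settings. Kdm7a, which removes methyl groups from H3K9 and H3K27, had 3.47, 3.60023 and 3.26 FPKM in OEx mice 1 to 3 and 0.699, 0.975 and 1.22 FPKM in Ctrl mice 1 to 3. It rose by 1.18 (SE 0.130, FDR 0.000299) with no overlap, but was at 0.17 (FDR 0.32) with the exon length and GC trends removed.

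H3K27 has a pair of dedicated demethylases that oppose PRC2. Kdm6a, the X-linked one and a partner of Kmt2c and Kmt2d, measured 4.86, 4.81 and 5.66 FPKM in OEx mice 1 to 3, against 1.43, 2.19 and 1.79 FPKM in Ctrl mice 1 to 3. It rose by 1.13 (SE 0.131, FDR 0.00038), with all OEx mice above all Ctrl mice. With the exon length and GC trends removed Kdm6a was at 0.41 (FDR 0.0236). Kdm6b stood at 10.5, 11.8 and 16.4 FPKM in OEx mice 1 to 3 and at 12.3, 14.6 and 9.96 FPKM in Ctrl mice 1 to 3 (log2 fold change 0.055, SE 0.193, FDR 0.813). Its groups overlapped, with OEx mouse 3 highest and Ctrl mouse 3 lowest, and its log2 fold change was -0.12 without the former and -0.077 without the latter. Whether the differences of Kdm6a and Kdm6b differ from each other was not tested. Kdm6bos, the opposite-strand row whose exons overlap Kdm6b over 34.0% of their bases, was at 1.07, 0.989 and 1.06 FPKM in OEx mice and 0.285, 0.184 and 0.313 FPKM in Ctrl mice, from 2 to 19 reads, and was not tested.

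The H3K4 demethylases of the Kdm5 family include Kdm5a, a partner of RBPJ in repression. Kdm5a had 4.90, 4.90 and 6.69 FPKM in OEx mice 1 to 3 and 2.37, 2.43 and 2.10 FPKM in Ctrl mice 1 to 3 and was higher by 0.97 (SE 0.133, FDR 0.000791), just under 2-fold, and at 0.028 (FDR 0.821) with the exon length and GC trends removed. Kdm5d, the Y-linked member, measured 2.70, 2.49 and 3.11 FPKM in OEx mice 1 to 3, against 0.754, 0.749 and 0.890 FPKM in Ctrl mice 1 to 3. OEx and Ctrl mice did not overlap, and Kdm5d rose by 1.07 (SE 0.114, FDR 0.000272), but it was at 0.13 (FDR 0.319) with the exon length and GC trends removed. Kdm5d and its X-linked relative Kdm5c, and likewise Kdm6a and Uty, are close copies whose reads may have been split. Kdm5c was at a log2 fold change of -0.022 with overlapping groups. Kdm5b was at 0.42 (FDR 0.0144) and turned to -0.31 (FDR 0.0137) with the trends removed. Kdm2a, Kdm2b, Kdm3b and Kdm4c passed the FDR at 0.52 to 0.69, and with the trends removed Kdm2a, Kdm3b and Kdm4c no longer did. Kdm4a and Kdm4b, demethylases of H3K9 and H3K36, were at 0.14 and -0.46 with overlapping groups and did not pass. Kdm4d was nearly absent, at 0 to 0.194 FPKM. Kdm8, a JmjC hydroxylase named after its values were seen, stood at 1.47, 1.54 and 1.90 FPKM in OEx mice 1 to 3 and at 3.48, 3.78 and 2.48 FPKM in Ctrl mice 1 to 3 (log2 fold change -0.68, SE 0.151, FDR 0.00679). The groups did not overlap for Kdm8, and its log2 fold change was -0.071 with the exon length and GC trends removed and -0.058 with equal sums.

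Class I histone deacetylases (HDACs) are the nuclear subunits of the large corepressor complexes, and they moved in opposite directions with the deposited values (2 higher and 1 lower of 4 by FDR, 0 called in limma or limma-voom). Hdac1 and Hdac2 are near-identical partners in the Sin3, NuRD and CoREST complexes. Hdac1 had 15.1, 15.8 and 18.2 FPKM in OEx mice 1 to 3 and 26.0, 24.8 and 22.1 FPKM in Ctrl mice 1 to 3, lower by an amount that passed the FDR (log2 fold change -0.54, SE 0.105, FDR 0.00362) but at 0.32 with equal sums of FPKM. Hdac2 measured 11.3, 11.3 and 10.2 FPKM in OEx mice 1 to 3, against 5.04, 5.71 and 7.66 FPKM in Ctrl mice 1 to 3 (log2 fold change 0.75, SE 0.145, FDR 0.00355). With the exon length and GC trends removed Hdac2 was at 0.32 (FDR 0.0849). Neither showed an overlap, Hdac1 being the higher of the pair in every mouse. Hdac3, the deacetylase of the NCoR and SMRT corepressors, stood at 31.0, 30.9 and 31.9 FPKM in OEx mice 1 to 3 and at 19.6, 21.03 and 17.7 FPKM in Ctrl mice 1 to 3 (log2 fold change 0.66, SE 0.0875, FDR 0.000671). It was the most abundant of the class in every OEx mouse. Hdac8 was the least abundant and did not pass the FDR, at a log2 fold change of -0.14, but was at -0.54 (FDR 0.00582) with the trends removed.

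Hdac6, a mostly cytoplasmic tubulin deacetylase, was the member of classes IIb and IV that passed. It had 8.76, 9.21 and 9.43 FPKM in OEx mice 1 to 3 and 5.15, 5.64 and 3.74 FPKM in Ctrl mice 1 to 3 (log2 fold change 0.81, SE 0.138, FDR 0.0021). The groups did not overlap, while Hdac10 and Hdac11 had overlapping groups at -0.045 and 0.21. With the exon length and GC trends removed Hdac10 was at 0.39 (FDR 0.0293) and Hdac11 at 0.56 (FDR 0.0295). Of the class IIa HDACs, which have little enzyme activity of their own, 0 of 3 passed, at an unadjusted p under 0.05 as well. Hdac7 had the largest value of the class and measured 7.18, 8.23 and 6.32 FPKM in OEx mice 1 to 3, against 5.67, 5.68 and 7.06 FPKM in Ctrl mice 1 to 3. Its groups overlapped (log2 fold change 0.21, SE 0.127, FDR 0.187). Hdac4 and Hdac5 were at -0.076 and 0.082, and with the exon length and GC trends removed at -0.53 (FDR 0.00729) and 0.013 (FDR 0.899). Hdac9 rested on 9 to 59 reads and was not tested.

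The sirtuins are NAD-dependent deacylases of different compartments. Of the 7 tested 1 was called higher (14.3%, close to the 12.8% of all rows) and 1 was lower by FDR alone, with a median of -0.051. Sirt1, the main nuclear deacetylase of the family, stood at 5.16, 5.46 and 6.21 FPKM in OEx mice 1 to 3 and at 1.32, 1.72 and 1.85 FPKM in Ctrl mice 1 to 3. It rose by 1.33 (SE 0.121, FDR 0.000141) with no overlap, and by 0.96 with the exon length and GC trends removed. Sirt2, a mostly cytoplasmic deacetylase named after its values were seen, had 10.9, 11.6 and 12.8 FPKM in OEx mice 1 to 3 and 21.7, 21.3 and 17.3 FPKM in Ctrl mice 1 to 3 (log2 fold change -0.72, SE 0.115, FDR 0.00155). The OEx values lay below the Ctrl values without overlap, although the value was 0.13 with equal sums. Sirt3, the mitochondrial deacetylase, measured 1.49, 1.27 and 1.90 FPKM in OEx mice 1 to 3, against 2.21, 1.37 and 1.99 FPKM in Ctrl mice 1 to 3. The groups overlapped (log2 fold change -0.16, SE 0.162, FDR 0.417), its value was 0.41 with equal sums, and 12.7% of its exon bases overlap Psmd13 and Ric8a. Sirt4, Sirt5, Sirt6 and Sirt7 had log2 fold changes of -0.056 to 0.18, and none passed the FDR with the deposited values. With the exon length and GC trends removed Sirt4 was at 0.62 (FDR 0.00294) and Sirt6 at 0.74 (FDR 0.000801). Sirt5 was then at -0.26 (FDR 0.0418) and Sirt7 at 0.14 (FDR 0.135).

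Ratios of related enzymes within a mouse do not depend on how the mice are scaled. A set of 6 pairs was taken after the values were seen, and in each the OEx and Ctrl ratios did not overlap. Since the pairs were taken for their values, the ratios are a description without a test. Ezh2/Ezh1 was 0.332, 0.298 and 0.246 in OEx mice 1 to 3 and 0.0714, 0.0797 and 0.120 in Ctrl mice 1 to 3. Ezh1 thus remained the more abundant of the pair in every mouse. Kmt2d/Kmt2b was 0.951 ± 0.0826 in OEx mice and 0.512 ± 0.0401 in Ctrl mice (mean ± SD, n = 3 each). Kdm5a/Kdm5c was 0.335 ± 0.0275 in OEx mice and 0.142 ± 0.0401 in Ctrl mice (n = 3 each). The first gene of each of these pairs was the less abundant in Ctrl mice.

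Among the deacetylases, Hdac2/Hdac1 was 0.673 ± 0.101 in OEx mice and 0.257 ± 0.0798 in Ctrl mice (n = 3 each), and Hdac3/Hdac1 was 1.92 ± 0.154 and 0.801 ± 0.0469. Hdac3 was thus above Hdac1 in OEx mice and below it in Ctrl mice. Sirt1/Sirt2 was 0.473, 0.469 and 0.484 in OEx mice and 0.0608, 0.0809 and 0.107 in Ctrl mice, the widest gap of the 6 with a log2 difference of 2.56. Such ratios still carry differences in exon length and GC content between their genes. With those trends removed, the difference between the fitted log2 fold changes of the pair went from 2.05 to 1.497 for Sirt1/Sirt2, from 1.02 to 0.65 for Ezh2/Ezh1 and from 0.99 to 0.083 for Kdm5a/Kdm5c.

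**Figure D4:**
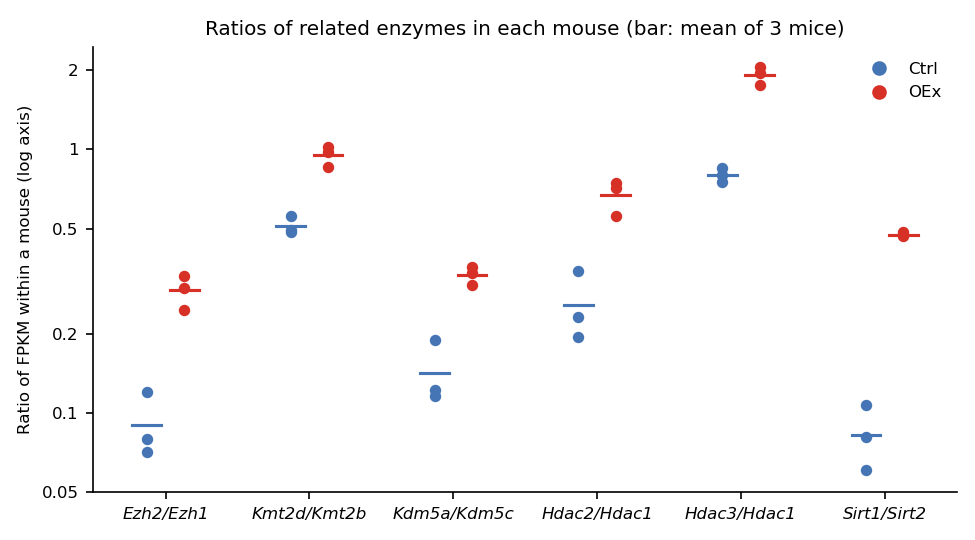
Ratio of the FPKM values of related enzymes within each mouse, on a log axis, with Ctrl mice in blue, OEx mice in red and a bar at the mean of 3 mice. The OEx ratios lie above the Ctrl ratios in all 6 pairs, and Hdac3/Hdac1 is above 1 in every OEx mouse and below 1 in every Ctrl mouse.

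Subunits that work beside these enzymes were listed by complex, and their counts by FDR alone stand beside 30.9% higher and 36.5% lower among all rows. Calls stand beside 12.8% higher and 15.5% lower among all rows. Of 10 COMPASS subunits tested, the partners of the H3K4 methyltransferases, Dpy30 was called lower (log2 fold change -1.28, SE 0.0933, FDR 6.97e-05), 4 were lower and 1 higher by FDR alone, and the median was -0.056. Of 7 accessory subunits of PRC2, Mtf2, which guides the complex to CpG islands, was called higher (1.15, SE 0.111, FDR 0.000185) and Phf19, a related protein, lower (-1.50, SE 0.208, FDR 0.000820). The called partners thus went in opposite directions. Among 22 subunits of HDAC corepressor complexes, 8 were higher (36.4%) and 5 lower (22.7%) by FDR, and Mbd3, a subunit of NuRD, was called lower (-1.39, SE 0.0805, FDR 3.80e-05).

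Of 26 subunits of acetyltransferase complexes, Supt20 and Kansl1 were called higher (1.65 and 1.04), a share of 7.69% against 12.8% of all rows. By FDR alone 11 were higher (42.3%) and 6 lower (23.1%). Another 26 enzymes of histone lysine methylation and acetylation with other symbols had 4 called higher (15.4%, close to the 12.8% of all rows) and a median of 0.22. These were Clock (1.67), Taf1 (1.55), Jmjd1c (1.26) and Prdm9 (1.09). A list of 16 nuclear cofactors of Notch signaling, which shares 10 genes with the enzymes, had 9 higher (56.2%) and 1 lower (6.25%) by FDR and a median of 0.55. Kmt2d was the called gene of that list.

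OEx mouse 3 had the highest value of its group for 55 of the 68 enzymes, and Ctrl mouse 3 the lowest of its group for 51. Both therefore widened the difference between groups. Without both replicate 3 mice, 11 enzymes were called higher, all among the 13, and the median was 0.37 against -0.10 for all rows.

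**Figure D5:**
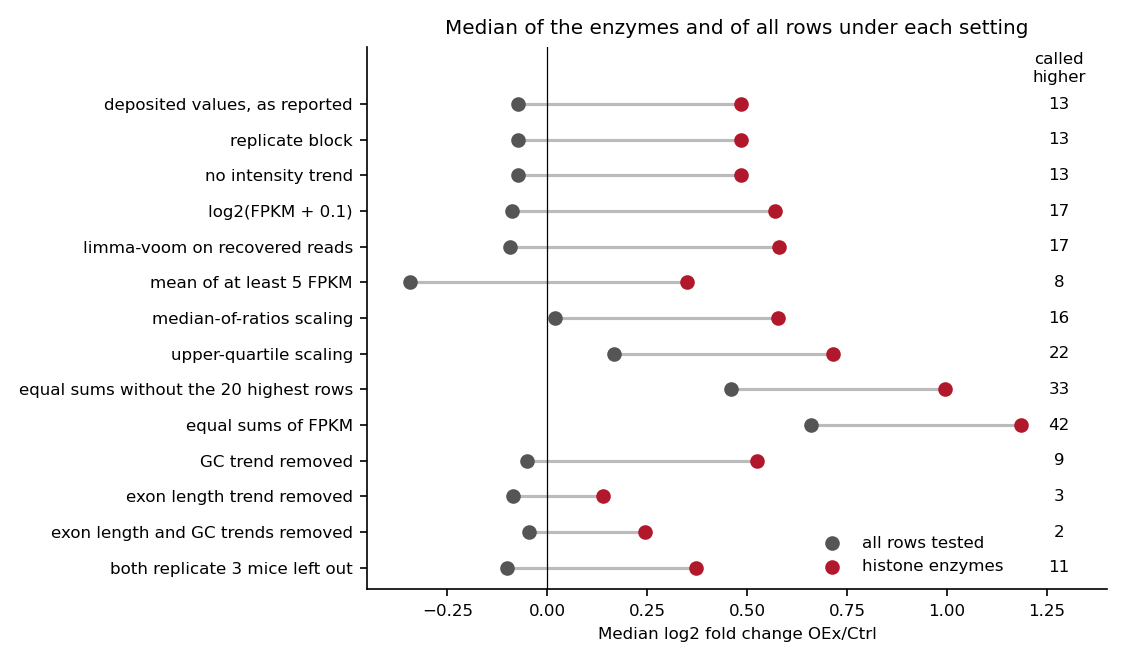
Median log2 fold change OEx/Ctrl of the enzymes (red) and of all rows tested (grey) with the deposited values and under 13 other settings, with the number of enzymes called higher at the right. Equal sums of FPKM move both medians up together, and removal of the exon length trend narrows the gap between them to 0.23.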

How the data were processed

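Whole AP RNA of 3 OEx and 3 Ctrl mice was sequenced. The authors deposited 1 table of FPKM values per mouse, with 55076 rows. The submitters' processing notes name CASAVA, HISAT2 2.0.5, StringTie 1.3.3b and featureCounts 1.5.0-p3, and the genome build is not given in the sources used here. The 544 rows without a symbol, 0.632% to 1.21% of the summed FPKM, were left out.

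Log2(FPKM + 1) values were fitted with limma 3.58.1 in R 4.3.3 (eBayes with trend, group as the only term) over 12553 rows whose mean reached 1 FPKM. Calls needed a Benjamini-Hochberg FDR under 0.05 and a log2 fold change above 1 in size. Fold changes on this scale understate those of low genes. The fit was tested on simulated data. The labels do not say that the mice are independent beyond their numbers, so p-values measure the spread between these samples.

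Reads were recovered with exon lengths of the GENCODE M21 annotation of GRCm38. They were whole within 0.05 reads for 96.9% to 97.5% of values; floors from them cover counting error only. Limma-voom on these reads took the denominators behind the FPKM values as library sizes and so keeps their scaling. Trends on exon length and GC content were removed from each mouse by lowess with a span of 0.3. Python 3.11.15 with pandas 2.3.3, scipy 1.17.1 and matplotlib 3.10.9 was used for tables and plots.

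The enzymes, classes, lists and alternatives were chosen with earlier results of these data known. Values are given for each enzyme called, for the one with the largest change in each class and for 17 enzymes of PRC2, Notch cofactors and main classes, and the others by counts and ranges. Same-numbered mice did not deviate together (mean correlation -0.24, against 0.097 for other pairs) and share only a number.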

Additional observations from a re-analysis of the deposited data

How the results depend on the processing

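The number of enzymes called higher, 13 with the deposited values, was 13 without a filter, without the intensity trend and with the replicate block (34 higher by FDR alone with the block, against 39 without), and 12 to 15 when 1 mouse was left out. The block changed no call of an enzyme described one by one. The replicate numbers pair no mice by the labels. It was 42 with equal sums of FPKM, 33 with equal sums without the 20 highest rows, 22 with upper-quartile scaling, 17 with limma-voom and with a pseudocount of 0.1, 16 with median-of-ratios scaling, 9 with the GC trend removed, 8 of 48 at a mean of at least 5 FPKM, 3 with the exon length trend removed, 2 with both trends removed and 11 without both replicate 3 mice. By FDR alone it was 39, with 4 lower, and with both trends removed it was 32, with 10 lower. No setting called an enzyme lower. Equal sums without the 20 highest rows, the single trends and the removal of both replicate 3 mice were chosen after seeing the data.

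The median of the enzymes (0.48) was 1.19 with equal sums, 0.99 without the 20 highest rows, 0.72 with the upper quartile, 0.58 with limma-voom, 0.35 at 5 FPKM, 0.24 with both trends removed, 0.14 with the length trend removed and 0.37 without both replicate 3 mice. Writers (0.62) were at 1.42, 1.20, 0.88 and 0.80 under the first 4 of these, 0.77 with a pseudocount of 0.1, 0.36 with both trends removed and 0.27 with the length trend removed. Erasers (0.19) were at 0.98, 0.77 and 0.45 under the 3 scalings, 0.40 with the GC trend removed, 0.036 with the length trend removed and 0.0998 without Ctrl mouse 3. The distance to the median of all rows (0.56) was 0.29 with both trends removed, 0.23 with the length trend removed, 0.67 with limma-voom, 0.66 with a pseudocount of 0.1 and 0.69 at 5 FPKM. The all-row median was 0.46 without the 20 highest rows, 0.17 with the upper quartile and 0.018 with median-of-ratios scaling. The causes were not tested.

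Over all 68 enzymes, the sign turned to above 0 for 14 with equal sums, 12 without the 20 highest rows, 10 with the upper quartile and 5 with median-of-ratios scaling. It turned to below 0 for 8 and above 0 for 4 with both trends removed, for 15 and 2 with the length trend removed, and for 2 and 6 with the GC trend removed. Past the FDR both ways were Nsd2 (-0.61), Nsd3 (-0.23) and Kdm5b (-0.31) with both trends removed and Kdm5b (-0.30) with the length trend removed. It turned to below 0 for 7 without both replicate 3 mice. Of the enzymes described one by one, with equal sums Hdac1 was at 0.32, Kat14 at 0.19, Sirt2 at 0.13 and Sirt3 at 0.41, and without the 20 highest rows Hdac1 was at 0.084 and Sirt3 at 0.25. Sirt3 was at 0.022 with the upper quartile. With both trends removed Kdm1b was at -0.031 and Ezh1 at -0.022, with the length trend removed Ezh1 was at -0.22, Kdm6b at -0.20 and Hdac7 at -0.037, and with the GC trend removed Kdm1b was at -0.013. Without both replicate 3 mice Ezh1 was at -0.087 and Kdm6b at -0.25. With 1 mouse left out Ezh1 ran from -0.020 to 0.16 and Kdm6b from -0.12 to 0.18.

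Each group had 3 mice, depth was 14772005 to 18655462 recovered reads, and strand was not stated, so reads of overlapping genes cannot be told apart.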
